A study of Mus musculus with 30 samples.

Results

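Bone marrow from mice that had progressed to acute myeloid leukaemia (AML) was compared with marrow from mice with myelodysplastic syndrome (MDS). The comparison took the 6 libraries labelled AML and the 6 labelled MDS, which are 12 of the 30 RNA sequencing libraries of a mouse model of therapy-related myeloid neoplasm. Every mouse was on the C57BL/6 background, and all 12 marrows carried a heterozygous loss of Egr1 (Egr1+/-) and of Apc (Apc del/+) and had been transplanted into wild type recipients. The MDS marrows carried a control shRNA against luciferase, and the AML marrows carried an shRNA against Trp53, so the diagnosis and the hairpin cannot be told apart here. The alkylating mutagen ENU (N-ethyl-N-nitrosourea) had been given to donor and recipient for all 6 MDS libraries and for AML 1, AML 4 and AML 5. AML 6 had ENU in the recipient only, and AML 2 and AML 3 had none. The RNA came from whole bone marrow, so fewer cells of a type and less RNA per cell cannot be told apart. Nothing in the labels says whether libraries share a donor, and p-values measure only the spread between these libraries.

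EGR1 and APC lie on the long arm of human chromosome 5, which is often lost in therapy-related myeloid disease. In MDS the marrow still makes maturing blood cells, with defects in their number and form, whereas in AML immature blasts displace them. Red cell production is driven by erythropoietin acting through its receptor and by the transcription factors GATA1, KLF1 and TAL1, which switch on globins, membrane proteins, iron uptake and the haem synthesis enzymes. Granulocytes pass through a promyelocyte stage marked by Mpo and Elane before they make S100a8 and S100a9, while Pax5, Ebf1 and Cd79a mark B cell precursors and Cd3e, Lck and Bcl11b mark T cells.

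All values are the normalised signal per gene that the authors deposited, and changes are given as the log2 change of (value + 1), AML minus MDS, so that a negative number means lower in AML. Reads recovered from the deposited values came to 17341986 to 21698808 per library, over the genes in the table only. The 11273 genes with a value of at least 1 in 6 or more libraries were tested. The AML libraries were far more varied than the MDS libraries. The median standard deviation of a gene was 0.579 in AML and 0.244 in MDS on the log2 scale, and 91.6% of genes varied more in AML. Correlations over genes between MDS libraries ran from 0.956 to 0.986, and between AML libraries from 0.621 to 0.910.

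**Figure D1:**
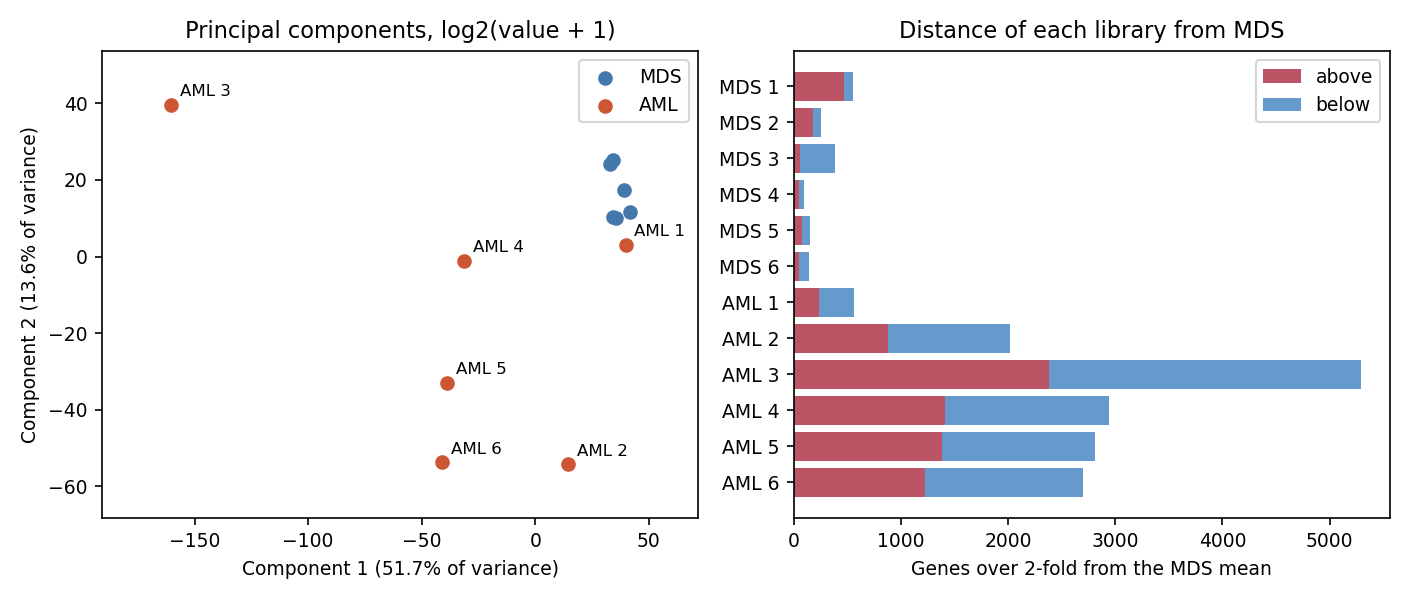
Left, the first and second principal components of log2(value + 1) over all tested genes for the 12 libraries. Right, the number of genes in each library more than 2-fold above or below the MDS mean, taken over the other 5 libraries for an MDS library; AML 1 lies beside the MDS libraries and AML 3 farthest from them.

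AML 1 lay close to MDS and AML 3 stood far from every other library. Only 558 genes in AML 1 were more than 2-fold from the MDS mean, a number near the 552 of MDS 1, whereas the count was 2022 in AML 2, 2938 in AML 4, 2815 in AML 5 and 2700 in AML 6. In AML 3 it was 5296, or 47% of the tested genes. AML 1 correlated with the MDS libraries at 0.939 to 0.979, and AML 3 at 0.622 to 0.650. AML 3 also went against the myeloid label in its markers. Its Mpo value was 30.3 against 2013 to 5543 in MDS, that of Spi1, the myeloid master regulator PU.1, was 11.1 against 244 to 529, and that of Ptprc, which encodes the pan-leukocyte antigen CD45, was 15.3 against 753 to 1219.

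The targeted gene was measured first. Trp53 read 43.2 to 97.9 in MDS (median 64.8) and 23 to 58 in AML (median 30.2). The values in AML 1 to AML 6 were 58, 23, 33.4, 26.3, 27 and 50.2, so the 4 libraries AML 2 to AML 5 lay below every MDS library, and the libraries labelled AML 1 and AML 6 lay inside the MDS range. The difference did not pass the test (log2 change -0.90 ± 0.28 (SE), limma adjusted p = 0.0774), and passed without AML 1 (-1.05, limma adjusted p = 0.0216). AML 1 held the highest AML value, so leaving it out favours a pass. Egr1 and Apc were lost on 1 allele in both groups, so their values check no label here. Egr1 read 135 to 597 in MDS (median 211) and 181 to 909.6 in AML (median 284) and did not pass the test (log2 change 0.48 ± 0.45 (SE), limma adjusted p = 0.479). Apc read 82.2 to 117 in MDS (median 94.2) and 73.7 to 149.6 in AML (median 125), with AML 1 the lowest of all 12 libraries and the other 5 AML libraries above every MDS library (log2 change 0.32 ± 0.17 (SE), limma adjusted p = 0.228), and it passed without AML 1 (0.46, limma adjusted p = 0.0297).

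Across the whole table, 361 of 11273 genes (3.20%) passed an adjusted p of 0.05, of which 112 (0.994%) were higher and 249 (2.21%) lower in AML. All of them passed narrowly, with adjusted p from 0.0336 to just under the threshold, while 3302 genes (29.3%) had an unadjusted p under 0.05. On the recovered reads edgeR called 448 genes (295 higher, 153 lower) and DESeq2 2216 (1528 higher, 688 lower), so the balance of higher and lower genes turned with the tool. The count also depended on single libraries. It fell to 0 or 1 when any 1 MDS library, AML 5 or AML 6 was left out, and it was 2472 without AML 1, 644 without AML 2, 267 without AML 3 and 334 without AML 4. Without AML 1 and AML 6, the libraries whose Trp53 lay inside the MDS range, it was 1906, with 359 of the 361 genes among them. With AML 1, AML 4 and AML 5 alone, the libraries with the same ENU exposure as MDS, no gene passed in limma, 3036 had an unadjusted p under 0.05, and all 361 genes kept their direction. The 361 genes were chosen on libraries that these fits share, so their overlap and direction are no separate check.

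**Figure D2:**
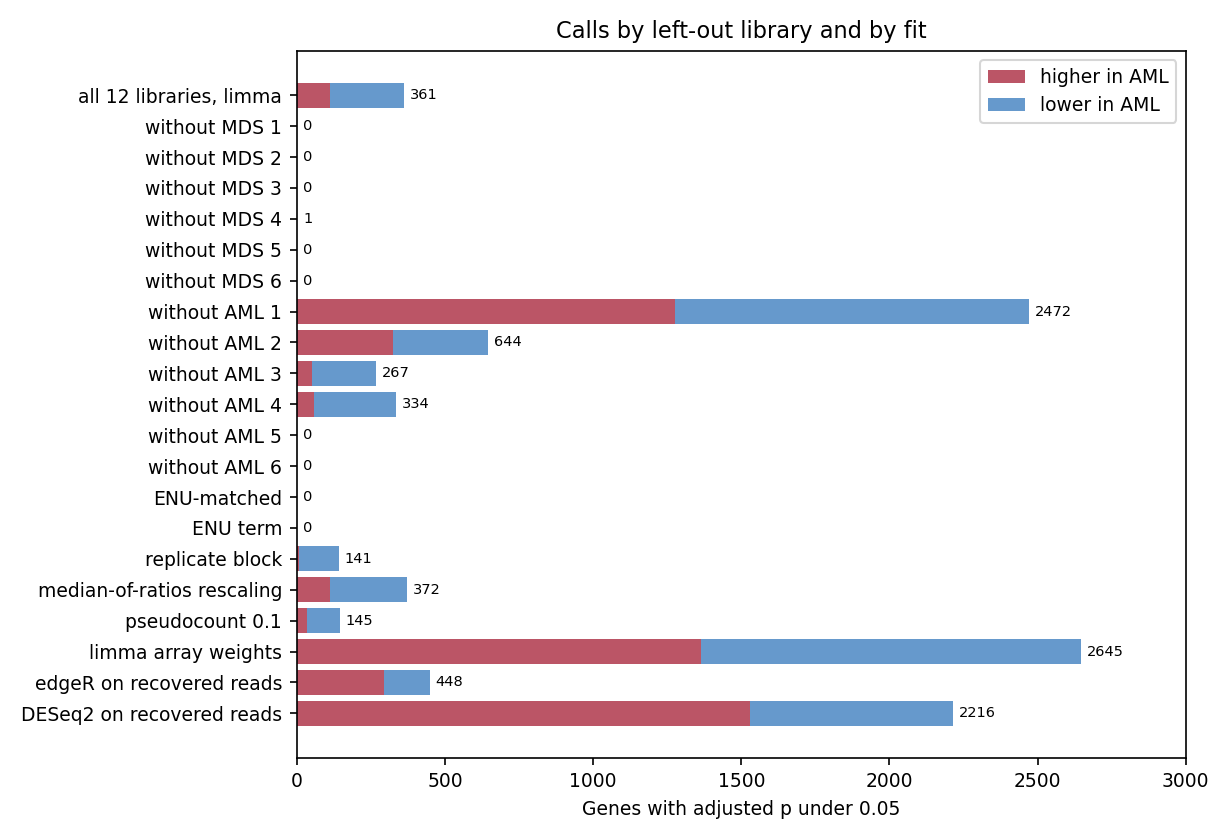
Genes with an adjusted p under 0.05 (horizontal axis) for all 12 libraries, without each library in turn, and under other fits, split into higher and lower in AML. The bars are longest with array weights (2645 genes), without AML 1 (2472) and with DESeq2 (2216), and 0 or 1 without any 1 MDS library.

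Fewer of the lower genes lay outside the MDS range in AML 1 and AML 4 than in the other AML libraries, and fewer of the higher genes in AML 1. Of the 249 lower genes, 206 lay below every MDS library in AML 1 and 204 in AML 4, against 244 to 248 in the other 4 libraries. Of the 112 higher genes, 66 lay above every MDS library in AML 1, against 111 or 112 in each of the others. These counts describe genes chosen by the same contrast. In all, 193 genes (1.71% of those tested) had every AML library above every MDS library, and 240 (2.13%) had every AML library below every MDS library.

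The haem synthesis and erythroid lists held more calls than any other list, all of them lower in AML. Of 26 erythroid identity and membrane genes, 7 passed as lower, none as higher, and all 26 had a negative change, with a median of -3.43 beside 0.04 over all tested genes. Of 12 haem synthesis genes, 8 passed as lower, none as higher, and the median was -2.20. Of 13 iron handling genes 3 passed, all lower, with a median of -1.01. In 13 of the 26 erythroid and 9 of the 12 haem genes no AML library reached the lowest MDS library. By edgeR 2 erythroid and 5 haem genes passed, and by DESeq2 24 and 12. The summed values of the erythroid list were 11991 to 41265 in MDS and 872 to 9948 in AML, without overlap.

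The difference was deepest in AML 3 and shallowest in AML 4 and AML 1. Relative to the MDS mean, the erythroid list averaged -0.77 on the log2 scale in AML 4, -1.30 in AML 1, -2.63 in AML 5, -3.69 in AML 2, -3.90 in AML 6 and -6.72 in AML 3. MDS 1 stood highest among the MDS libraries at 1.20, and the other 5 lay between -0.61 and 0.13. AML 4, AML 1 and AML 5, the 3 libraries nearest to MDS in this list, are also the 3 with full ENU exposure, whose part in the difference was not tested within AML. With these 3 alone the list median was -1.54 for erythroid and -1.42 for haem genes, and no member passed.

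**Figure D3:**
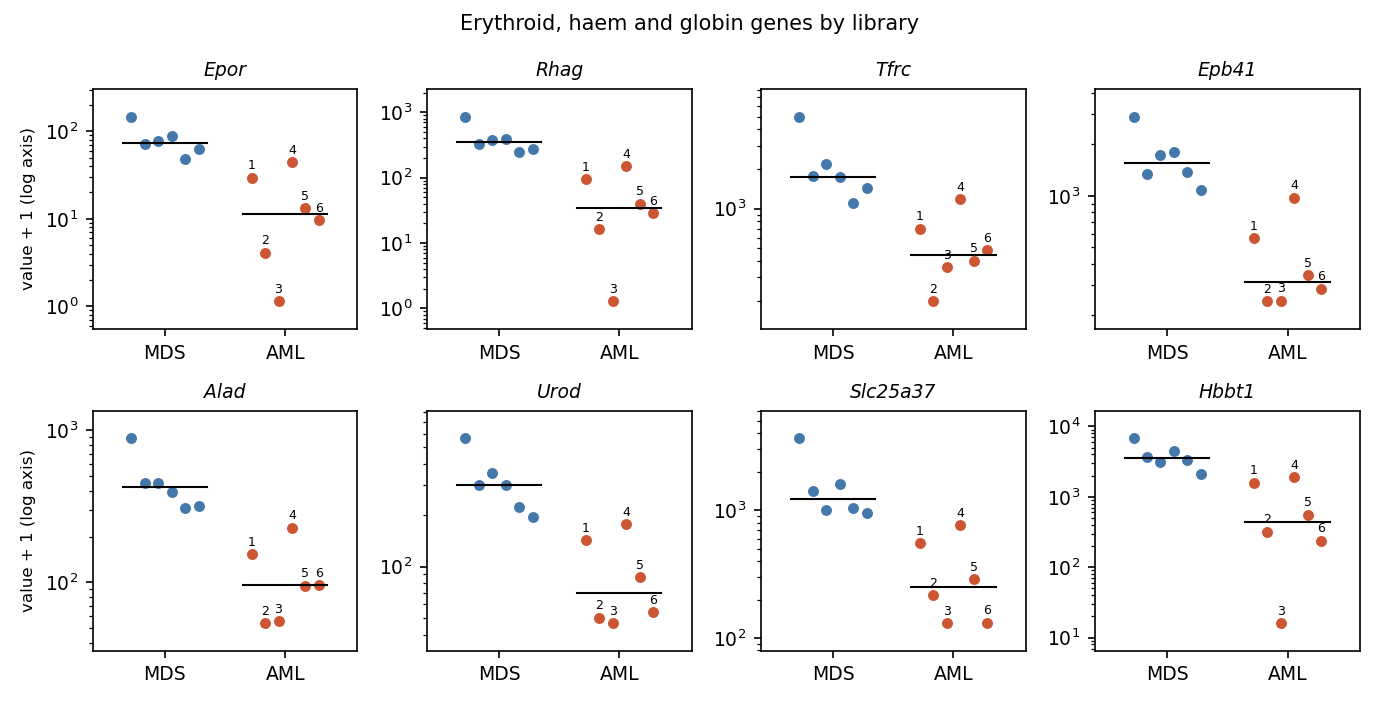
Values (log axis, value + 1) of 8 erythroid, haem and globin genes in each library, with the AML libraries numbered and group medians as black lines. Every AML point lies below every MDS point for these genes, except that AML 4 exceeds the lowest MDS library for Tfrc.

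Epor, the erythropoietin receptor through which red cell precursors receive their survival signal, read 47.4 to 146 in MDS (median 73.4) and 0.143 to 43.5 in AML (median 10.4) and fell (log2 change -3.02 ± 0.74 (SE), limma adjusted p = 0.0479). In AML 3 it was 0.143 and in AML 2 3.10. Rhag, the ammonium channel of the Rh complex in the red cell membrane, read 249 to 857 in MDS (median 354) and 0.287 to 147 in AML (median 33.5) (log2 change -3.83 ± 0.92 (SE), limma adjusted p = 0.0466). Epb41, the protein 4.1 that ties spectrin to the membrane, read 1075 to 2909 in MDS (median 1554) and 239.7 to 973 in AML (median 312) (log2 change -2.08 ± 0.37 (SE), limma adjusted p = 0.0336). No AML library overlapped MDS for Epor, Rhag or Epb41, and AML 4 came nearest for all of them. Cldn13, a claudin of mouse red cell precursors, read 99.9 to 312 in MDS (median 125) and 0.0957 to 71.7 in AML (median 11.9) and Tspan33, a tetraspanin needed in erythroid maturation, 199 to 532 in MDS (median 326) and 0.335 to 158 in AML (median 28.5). Both fell by a similar amount (Cldn13: log2 change -3.65 ± 0.89 (SE), limma adjusted p = 0.0473; Tspan33: log2 change -3.68 ± 0.91 (SE), limma adjusted p = 0.0499).

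The factors that head the programme were low in the same libraries without passing. Gata1 read 56.2 to 211 in MDS (median 80.7) and 0.0957 to 51.7 in AML (median 21.1) (log2 change -2.67 ± 0.81 (SE), limma adjusted p = 0.0738). Klf1 read 51.3 to 225 in MDS (median 74.4) and 0.335 to 56 in AML (median 13.8) (log2 change -2.71 ± 0.79 (SE), limma adjusted p = 0.0673), and AML 4 was its highest AML library at 56. Tal1 was the transcription factor of the erythroid list that passed, along with Epor, Tfrc, Rhag, Cldn13, Epb41 and Tspan33. Hbbt1, a beta globin and the only adult globin chain in the table, read 2123 to 6759 in MDS (median 3562) and 15.2 to 1922 in AML (median 439) and did not pass (log2 change -3.37 ± 0.94 (SE), limma adjusted p = 0.0619). The 2 globin genes present, Hbbt1 and the alpha-like Hbq1b, made up 0.215 to 0.656% of summed values in MDS (mean 0.383 ± 0.151 SD, n = 6) and 0.00179 to 0.220% in AML (mean 0.0829 ± 0.0833 SD, n = 6). Two-sided exact permutation over every placement of the labels gave p = 0.00433, or 0.0130 after adjustment over the 3 shares tested. With the ENU-matched libraries the exact permutation p was 0.0595.

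Haem enzymes fell along the pathway. Alad, which joins 2 molecules of aminolevulinate, read 306 to 885 in MDS (median 423) and 53.1 to 228 in AML (median 94.6) (log2 change -2.13 ± 0.37 (SE), limma adjusted p = 0.0336). Urod, further down, read 195 to 561 in MDS (median 299) and 45.8 to 176 in AML (median 69.3) (log2 change -1.91 ± 0.37 (SE), limma adjusted p = 0.0381). Cpox and Fech, later enzymes of the pathway, and the mitochondrial membrane proteins Abcb10 and Tmem14c passed too, all lower. Slc25a37, the mitoferrin that carries iron into mitochondria, read 951 to 3647 in MDS (median 1229) and 130.2 to 765 in AML (median 252) (log2 change -2.36 ± 0.48 (SE), limma adjusted p = 0.0423). Alas2, the erythroid enzyme that commits glycine to haem, had a larger change with wider spread and did not pass (log2 change -3.90 ± 1.05 (SE), limma adjusted p = 0.0565), its value being 8.08 in AML 3 and 1198 in AML 4 against 1203 to 4314 in MDS.

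Iron uptake and iron signalling moved with them. Tfrc, the transferrin receptor, read 1110.2 to 4986 in MDS (median 1747) and 197 to 1175 in AML (median 443) (log2 change -2.03 ± 0.44 (SE), limma adjusted p = 0.0423), so AML 4, the highest AML library, lay inside the MDS range. Erfe, the hormone erythroferrone by which red cell precursors lower hepcidin, read 61.1 to 389.8 in MDS (median 132) and 2.92 to 54.6 in AML (median 7.19) (log2 change -3.63 ± 0.67 (SE), limma adjusted p = 0.0370). Ncoa4, the receptor that sends ferritin to degradation, read 14.9 to 31.6 in MDS (median 21) and 3.97 to 13.8 in AML (median 8.50) (log2 change -1.21 ± 0.27 (SE), limma adjusted p = 0.0435). The iron exporter ferroportin, Slc40a1, did not follow in every library. It was 256 in AML 5 and 177 in AML 1 but 3.16 in AML 3, against 133 to 253 in MDS.

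The sequence just upstream of the start of genes of this programme is shown because the members moved together and GATA factors bind the motif AGATAA. In the RefSeq promoter table (build GRCm38.p6), 35 of the 50 tested members of the erythroid, haem and iron lists were matched by symbol, and the 250 bases before the start were searched for AGATAA on both strands, which reads TTATCT on the other strand. The motif was in 8 of their 49 windows (16.3%), in 9.99% of all 32851 windows in the table, and in 6.02% of the 11222 windows of tested genes. Among windows of the members that passed it was in 2 of 20, those of Epor and Tal1, and it was in 7.66% of windows of all genes lower in AML and 7.32% of those higher. Capitals mark the motif in Epor (chr9:21963577-21963826, minus strand) and Tal1 (chr4:115056176-115056425, plus strand). Rhag (chr17:40810899-40811148, plus strand), whose change was among the largest of the members, has no AGATAA in this window. It does hold TTATCA, which is TGATAA on the other strand, and such variants of the motif were not searched.
Epor: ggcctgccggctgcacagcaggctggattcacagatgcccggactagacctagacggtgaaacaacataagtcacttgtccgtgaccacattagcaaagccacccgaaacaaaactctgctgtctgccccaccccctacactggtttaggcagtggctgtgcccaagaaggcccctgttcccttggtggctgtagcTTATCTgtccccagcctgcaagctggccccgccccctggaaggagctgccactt
Tal1: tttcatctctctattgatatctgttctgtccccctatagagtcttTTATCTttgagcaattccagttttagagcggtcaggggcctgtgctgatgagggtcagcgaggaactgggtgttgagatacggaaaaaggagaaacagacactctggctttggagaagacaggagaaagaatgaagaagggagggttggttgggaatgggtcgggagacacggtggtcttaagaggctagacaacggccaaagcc
Rhag: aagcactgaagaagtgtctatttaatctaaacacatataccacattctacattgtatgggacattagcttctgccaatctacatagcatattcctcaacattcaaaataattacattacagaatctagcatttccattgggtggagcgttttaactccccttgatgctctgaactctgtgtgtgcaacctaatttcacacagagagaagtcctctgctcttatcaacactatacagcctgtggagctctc
A match is a description of the letters, and no binding was measured. The motifs CCNCNCCC and CACGTG were searched the same way. They were in 71.3% and 9.58% of windows of genes lower in AML, and in 69.9% and 9.76% of those higher. Windows of the erythroid, haem and iron lists held them in 61.2% and 10.2%. The motifs were in 62.9% and 8.42% of windows of all tested genes, and in 45.9% and 6.02% of all windows.

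The largest falls beyond these lists were in Lipg and Tmcc2. Lipg, the endothelial lipase, read 101 to 150.1 in MDS (median 113) and 0.809 to 50 in AML (median 3.98) (log2 change -4.12 ± 0.78 (SE), limma adjusted p = 0.0381), with AML 2, AML 3 and AML 4 at 0.809, 0.813 and 1.57. AML 4, which kept the most of the erythroid list, thus had almost none of Lipg. Tmcc2 read 532 to 2751 in MDS (median 1052) and 4.30 to 586 in AML (median 93) (log2 change -3.96 ± 0.93 (SE), limma adjusted p = 0.0458). Slc38a5, a glutamine transporter, was listed at 0 in AML 3 and read 30.9 in AML 4 against 54.4 to 133 in MDS (log2 change -3.63 ± 0.78 (SE), limma adjusted p = 0.0423). Btnl10, a butyrophilin-like gene, was also listed at 0 in AML 3 (log2 change -3.47 ± 0.73 (SE), limma adjusted p = 0.0423). Samd14, which modulates stem cell factor signalling in red cell precursors, read 85.1 to 249.7 in MDS (median 111) and 0.574 to 59.3 in AML (median 11.7) (log2 change -3.42 ± 0.78 (SE), limma adjusted p = 0.0435).

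Among genes without overlap between the groups, the widest gaps were those of Fam213a, Nrip3, Lipg, Abcg2, Plek2, Gfap, Nt5c3a and Slc38a5, all lower in AML. Fam213a, a peroxiredoxin-like protein, read 309.6 to 749 in MDS (median 420.3) and 14 to 136 in AML (median 31.3) (log2 change -3.52 ± 0.50 (SE), limma adjusted p = 0.0336). Abcg2, an exporter of porphyrins, read 123 to 358 in MDS (median 166) and 10.4 to 66.3 in AML (median 42.1) (log2 change -2.52 ± 0.46 (SE), limma adjusted p = 0.0370). Plek2, a pleckstrin that organises actin in red cell precursors, read 25.6 to 95.8 in MDS (median 32.5) and 0.287 to 13.5 in AML (median 2.46) (log2 change -3.09 ± 0.58 (SE), limma adjusted p = 0.0381). Nt5c3a, the pyrimidine nucleotidase of red cells, read 245 to 794 in MDS (median 345) and 44.1 to 139.7 in AML (median 60) (log2 change -2.33 ± 0.36 (SE), limma adjusted p = 0.0336). The remaining pair, Nrip3 and Gfap, read 0.0957 to 6.12 and 0.0463 to 5.51 in AML against 15.1 to 53.5 and 10.5 to 39.1 in MDS.

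Rsad2 was the interferon-inducible gene that fell. It read 329 to 1824 in MDS (median 393) and 3.06 to 306 in AML (median 55.8) (log2 change -3.74 ± 0.90 (SE), limma adjusted p = 0.0466), with MDS 1 at 1824 and AML 4 the highest AML library at 306. It was 1 of 24 type I interferon response genes to pass, and the median of that list was 0.11. Isg15 read 3.57 to 36.2 in AML and 21.2 to 292 in MDS and did not pass (limma adjusted p = 0.0584). Bnip3l, the mitophagy receptor that clears mitochondria from reticulocytes, read 223 to 417 in MDS (median 304) and 97.9 to 164 in AML (median 142) without overlap (log2 change -1.20 ± 0.19 (SE), limma adjusted p = 0.0336) and was 1 of 15 Bcl2 family genes to pass. Vcam1, an adhesion molecule of marrow macrophages and stroma, read 46.9 to 91.3 in MDS (median 68.2) and 3.92 to 37.7 in AML (median 23.9) (log2 change -1.76 ± 0.43 (SE), limma adjusted p = 0.0473) and was 1 of 14 macrophage genes to pass, while C1qa, a complement gene of macrophages, did not (log2 change -1.83 ± 0.55 (SE), limma adjusted p = 0.0721).

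Of the division genes Prc1 fell. Prc1, which bundles the midzone microtubules, read 132 to 240.1 in MDS (median 171) and 55.2 to 119 in AML (median 71.3) without overlap (log2 change -1.19 ± 0.20 (SE), limma adjusted p = 0.0336), and was the only 1 of 30 mitosis genes to pass. The list had 29 negative changes and a median of -0.49. Relative to the MDS mean, the list averaged -0.28, -1.53, 0.19, -0.05, -0.49 and -0.88 on the log2 scale in AML 1 to AML 6. The MDS libraries ran from -0.29 to 0.43. AML 1, AML 3 and AML 4 thus lay inside the MDS range, and AML 2, AML 5 and AML 6 below it. Mki67 read 1512 to 4569.6 in MDS (median 2435) and 523 to 1576 in AML (median 988) (log2 change -1.25 ± 0.34 (SE), limma adjusted p = 0.0598) and Ccna2 223 to 471 in MDS (median 302) and 71.1 to 218 in AML (median 154) (log2 change -1.06 ± 0.27 (SE), limma adjusted p = 0.0536), neither past the threshold. AML 2 was the lowest library for Mki67, Ccna2 and Rrm2, at 523, 71.1 and 84.6. None of 38 DNA replication genes passed in limma (7 at an unadjusted p under 0.05, 0 by edgeR and 2 by DESeq2), and their median was 0.03. That median joined libraries that moved in opposite directions. Counts outside the MDS range are given by library for this and later lists. The matching share of all tested genes was not worked out, so such counts are not set against the rest of the table. That background differed between libraries. Genes more than 2-fold from the MDS mean made up 4.95% of tested genes in AML 1 and 47% in AML 3. In AML 1 to AML 6, 1, 0, 21, 24, 17 and 8 of the 38 lay above every MDS library and 2, 35, 7, 1, 3 and 14 below.

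The genes that rose belonged to no single list. Sytl2, a synaptotagmin-like protein of vesicle docking, had the largest change, reading 0.265 to 2.73 in MDS (median 2.03) and 2.83 to 85.6 in AML (median 22.1) (log2 change 2.87 ± 0.72 (SE), limma adjusted p = 0.0499), with AML 3 and AML 5 highest at 85.6 and 66.8. Dusp2 and Dusp5 are nuclear phosphatases that switch off ERK kinases. Dusp2 read 16.3 to 45.7 in MDS (median 38.8) and 46.2 to 423 in AML (median 158) (log2 change 2.12 ± 0.49 (SE), limma adjusted p = 0.0435) and was 1 of 22 immediate early genes to pass, while Dusp5 read 2.81 to 9.55 in MDS (median 8.29) and 14.1 to 51.9 in AML (median 30.5) (log2 change 2.05 ± 0.35 (SE), limma adjusted p = 0.0336). Every AML library was above every MDS library for Sytl2, Dusp2 and Dusp5, AML 1 included. Zfhx2, a homeobox gene, behaved alike at 1.58 to 6.27 in MDS (median 3.10) and 6.99 to 32.7 in AML (median 16.4) (log2 change 2.06 ± 0.42 (SE), limma adjusted p = 0.0423). Fos, another immediate early gene, read 503 to 5525 in AML and 2027 to 3588 in MDS, with AML 2 highest and AML 3 lowest.

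For other genes that rose, AML 1 did not exceed MDS. Rab11fip3, an effector of recycling endosomes, read 4.04 in AML 1 and 14.5 to 16.6 in the other 5, against 1.98 to 4.15 in MDS (log2 change 1.74 ± 0.31 (SE), limma adjusted p = 0.0336). Dnmt3a, the de novo DNA methyltransferase often mutated in human AML, read 34 in AML 1 and 115 to 199 in the others against 35.4 to 57.2 in MDS (log2 change 1.46 ± 0.36 (SE), limma adjusted p = 0.0499). It was the only 1 of 29 genes recurrently mutated in myeloid neoplasms to pass. Pecam1, an adhesion molecule of endothelium, platelets and leukocytes, showed the same order, 36.1 in AML 1 and 103 to 165 in the others against 26.8 to 60.2 in MDS (log2 change 1.45 ± 0.33 (SE), limma adjusted p = 0.0435). Nckap5l (log2 change 1.91 ± 0.42 (SE), limma adjusted p = 0.0435) and Prmt2, an arginine methyltransferase (log2 change 1.73 ± 0.39 (SE), limma adjusted p = 0.0435), also had AML 1 inside the MDS range.

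Of the remaining genes with the largest rises, Nipsnap1, a mitochondrial matrix protein, read 5.34 to 6.40 in MDS (median 6.24) and 6.50 to 46.4 in AML (median 33.4) (log2 change 1.81 ± 0.43 (SE), limma adjusted p = 0.0464), and AML 1 exceeded the highest MDS library by little. Snap47, a SNARE protein, read 3.34 to 7.10 in MDS (median 4.78) and 7.70 to 40.1 in AML (median 24.1) (log2 change 1.82 ± 0.43 (SE), limma adjusted p = 0.0458). Mettl8, a mitochondrial tRNA methyltransferase, read 1.64 to 11.1 in MDS (median 5.26) and 10.8 to 38.4 in AML (median 23.7) (log2 change 1.89 ± 0.45 (SE), limma adjusted p = 0.0466). Maged2 and Ccdc171 rose from low levels, Maged2 from a median of 1.41 to 8.42 and Ccdc171 from 1.98 to 8.17, and AML 1 was the lowest AML library for both (Maged2: limma adjusted p = 0.0435; Ccdc171: limma adjusted p = 0.0485). Smaller rises passed in 3 genes of general functions. Hsf1, the heat shock transcription factor, read 30.5 to 41.2 in MDS (median 35.3) and 49.7 to 88.7 in AML (median 55.9) without overlap (log2 change 0.82 ± 0.17 (SE), limma adjusted p = 0.0423). Rpl22, a ribosomal protein, read 117 to 137 in MDS (median 129) and 139 to 342 in AML (median 216) (log2 change 0.74 ± 0.18 (SE), limma adjusted p = 0.0499), and Srsf7, a splicing factor, 156 to 232 in MDS (median 179) and 236 to 401 in AML (median 264) (log2 change 0.67 ± 0.17 (SE), limma adjusted p = 0.0499).

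Myeloid maturation genes differed widely among AML libraries, and none passed in limma (15 at an unadjusted p under 0.05, 0 by edgeR and 0 by DESeq2 for the late neutrophil list). For the 24 late neutrophil genes the median change was -2.50 and every change was negative, yet the list separated the libraries. In AML 1, 15 of the 24 lay above every MDS library and 0 below, whereas the number below every MDS library was 24 in AML 3 and AML 6, 21 in AML 5, 20 in AML 4 and 17 in AML 2. S100a8, a calcium-binding alarmin, read 21777, 3854, 72.8, 2486, 4327 and 1134 in AML 1 to AML 6 against 10987 to 17626 in MDS (log2 change -2.66 ± 1.04 (SE), limma adjusted p = 0.123). Its partner S100a9 followed (log2 change -2.67 ± 1.04 (SE), limma adjusted p = 0.124). Mxd1, a Myc antagonist of mature granulocytes, came nearest to passing, at 1197, 213, 22.3, 289, 216 and 86.5 in AML 1 to AML 6 and 925 to 1488 in MDS (log2 change -2.66 ± 0.70 (SE), limma adjusted p = 0.0544). Cxcr2, the chemokine receptor by which neutrophils leave marrow, read 175 to 390.3 in MDS (median 239) and 1.96 to 284 in AML (median 47.6) (log2 change -2.73 ± 0.82 (SE), limma adjusted p = 0.0705). Without AML 1, 15 of the 24 passed as lower and the median was -3.18.

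In primary granule genes AML 3 stood apart, and none of 11 passed in limma (4 at an unadjusted p under 0.05, 0 by edgeR and 0 by DESeq2). Mpo, myeloperoxidase, read 3275, 3975, 30.3, 1171, 3017 and 1827 in AML 1 to AML 6 and 2013 to 5543 in MDS (log2 change -1.76 ± 1.00 (SE), limma adjusted p = 0.245). Elane, neutrophil elastase, read 1161, 523, 7.27, 315, 736 and 261 and 548 to 1649 in the same order (log2 change -2.16 ± 0.96 (SE), limma adjusted p = 0.158). AML 2, AML 1 and AML 5 thus lay within the MDS range of Mpo. Of 17 monocyte genes, 14, 9, 1, 0, 0 and 1 lay above every MDS library in AML 1 to AML 6, and 0, 4, 15, 14, 14 and 8 below. Vcan, a proteoglycan of monocytes, read 327, 20.2, 29.8, 57.9, 11.4 and 149.6 in AML 1 to AML 6 and 220.5 to 435 in MDS (log2 change -2.50 ± 0.67 (SE), limma adjusted p = 0.0547), and the cytokine receptor subunit Csf2rb 501, 187, 18.8, 93.3, 114 and 153 and 345 to 594 (log2 change -2.05 ± 0.58 (SE), limma adjusted p = 0.0623). Cebpa, the granulocytic regulator, read 218 in AML 2, 1.24 in AML 3 and 83.8 to 136 in MDS.

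**Figure D4:**
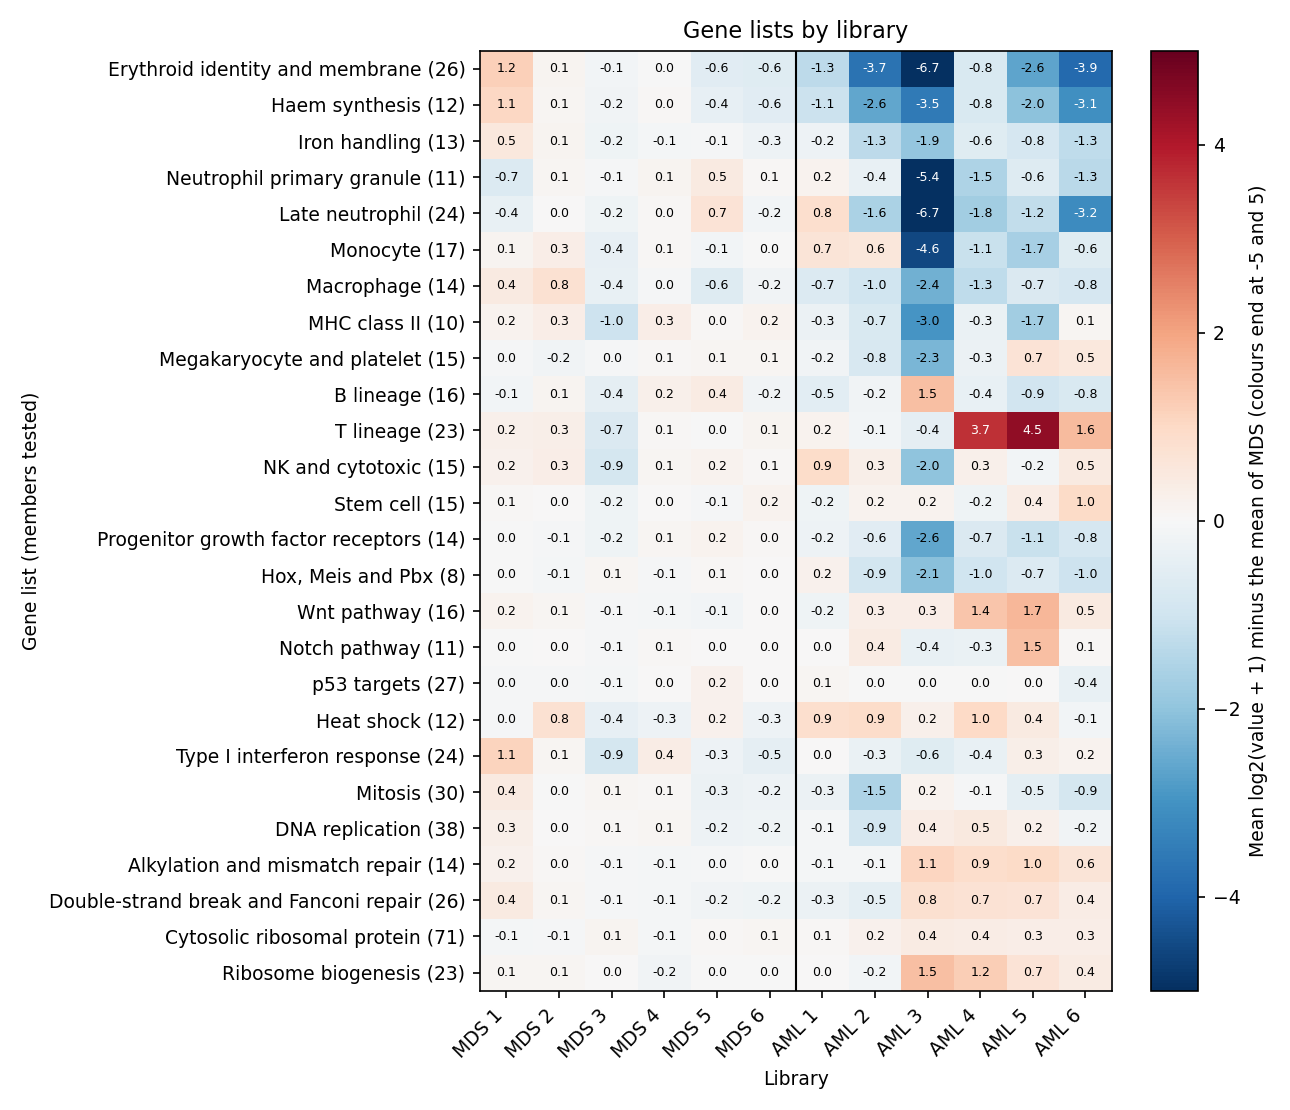
Mean log2(value + 1) of 26 gene lists in each library, minus the mean of the 6 MDS libraries, printed in each cell, with the number of tested members beside each name. The erythroid and haem rows are negative in all 6 AML libraries, whereas the neutrophil, B lineage and T lineage rows differ from 1 AML library to the next.

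T lineage genes stood out in AML 4, AML 5 and, for part of the list, AML 6. None of the 23 members passed in limma (4 at an unadjusted p under 0.05, 4 by edgeR and 18 by DESeq2), the median change being 1.72. In AML 4 20 of the 23, in AML 5 21 and in AML 6 14 lay above every MDS library. The counts above and below were 9 and 2 in AML 1, 2 and 5 in AML 2, and 6 and 15 in AML 3. The share of all tested genes outside the MDS range in each library was not worked out for comparison. The list summed to 108 to 241 in MDS and 254 to 7652 in AML. Its mean on the log2 scale was 3.12, 2.79 and 2.49 in AML 1, AML 2 and AML 3, inside the MDS range of 2.20 to 3.22. Cd3e, a subunit of the T cell receptor complex, read 16.2, 9.93, 0.957, 258, 947 and 5.52 in AML 1 to AML 6 and 4.98 to 12.1 in MDS. Cd3d, its partner, read 260.2 in AML 4 and 385 in AML 5, and 4.50 in AML 6. So AML 6 had neither of these chains above MDS. Lck, the kinase of T cell signalling, was high in AML 3 too, reading 29.6, 17.5, 91.6, 274, 592 and 246 in AML 1 to AML 6 and 11.5 to 26.9 in MDS (log2 change 2.48 ± 0.73 (SE), limma adjusted p = 0.0695). Gata3, a T cell and stem cell regulator, read 3.77, 2.83, 21.6, 95.7, 98.8 and 51.1 and 2.01 to 4.56 in the same order (log2 change 2.57 ± 0.78 (SE), limma adjusted p = 0.0736).

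AML 4 and AML 5 differed from each other in the genes that accompanied CD3. Several genes named for single libraries from here on were chosen after their values were seen. AML 4 had Ccr9, a chemokine receptor of thymocytes and gut-homing cells, at 598 and Cd226, an adhesion receptor of T and NK cells, at 219, where no MDS library exceeded 8.29 and 4.81. AML 4 also had Il7r at 632 and Gzma at 237, against at most 32.6 and 4.08 in MDS. AML 5 had the recombination genes Rag1, at 586, and Dntt, at 527. It also held the highest values of Notch1 (1611) and of its targets Hes1 (145) and Dtx1 (150.1), whose MDS ranges were 188 to 335, 0.742 to 2.21 and 2.58 to 6.30. Bcl11b, a factor that commits thymocytes, was high in AML 4, AML 5 and AML 6 at 155, 213 and 73.8. Mpo was 1171 in AML 4 and 3017 in AML 5, so myeloid and T lineage transcripts were found in the same libraries.

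AML 3 held transcripts of B cell precursors. Pax5 read 208 there and 2.94 to 5.93 in MDS, and Ebf1 419.6 and 2.53 to 9.06. Cd79a, a B cell receptor subunit, read 409, and no other library exceeded 37.9. Vpreb3, part of the pre-B cell machinery, read 258, Dntt 767, Rag1 44.5 and Il7r 645. Of the 16 B lineage genes 9 lay above and 6 below every MDS library in AML 3. Gata1, Klf1 and Slc4a1, the anion exchanger of red cells, were low in it, at 0.0957, 0.335 and 6.12, as were the stem and progenitor markers Cd34 (1.05) and Flt3 (0.574), whereas Kit, the stem cell factor receptor, was 217 against 68.8 to 82.1 in MDS. Without AML 3, 9 of 26 erythroid genes passed, with a median of -2.60, and the late neutrophil median was -1.59. Without AML 3, AML 4 and AML 5 together no gene passed in limma (2144 at an unadjusted p under 0.05), and the erythroid median was -3.20 and the T lineage median 0.53.

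**Figure D5:**
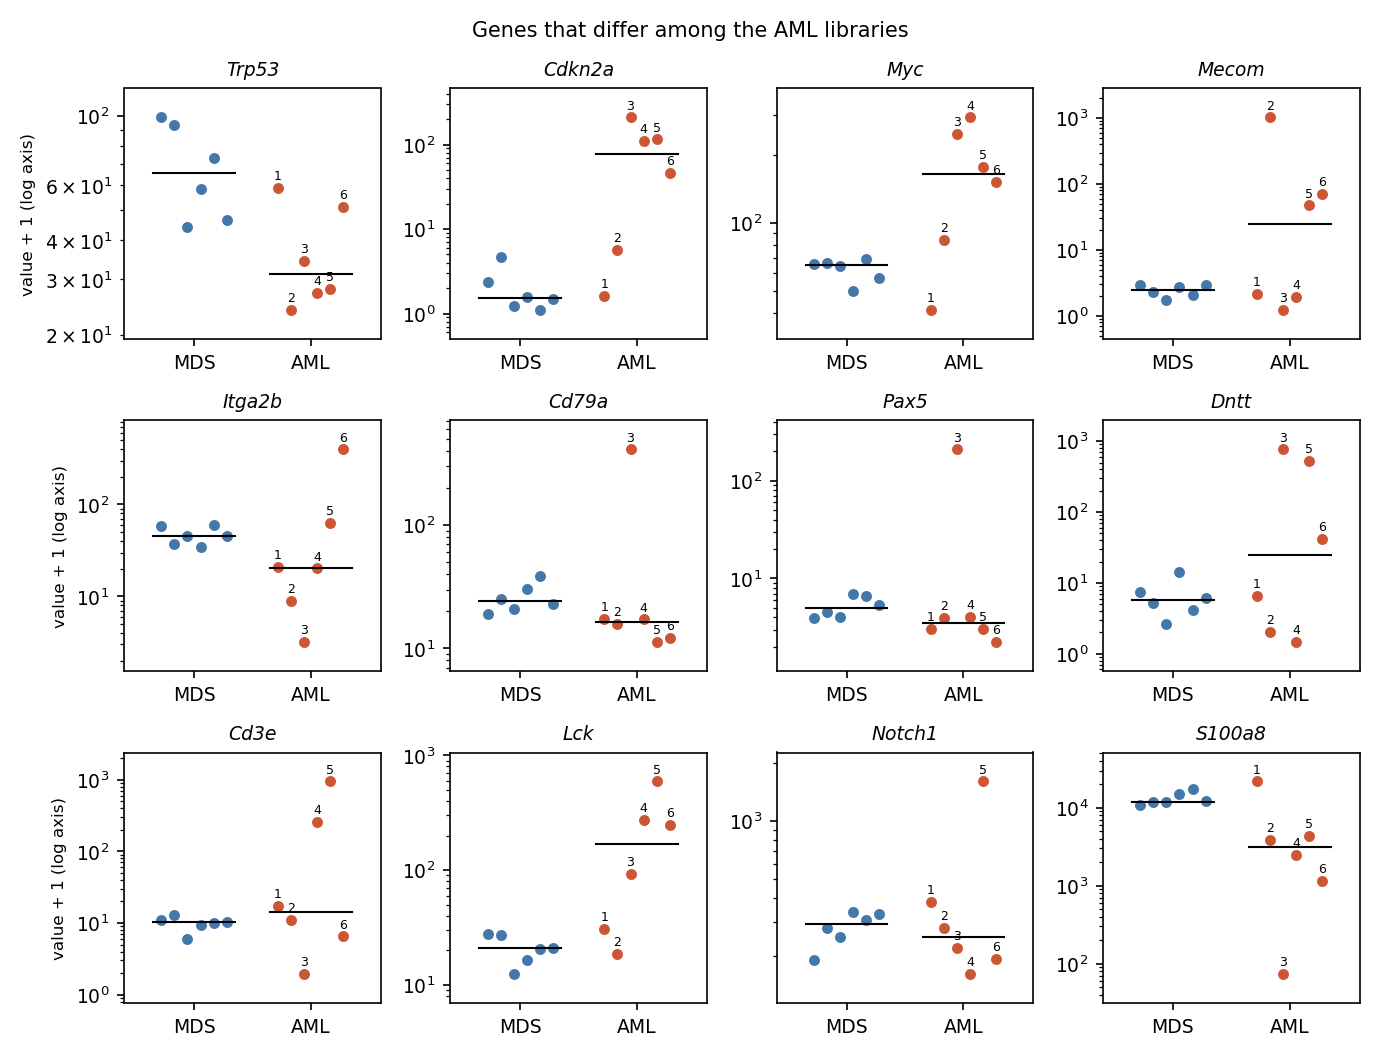
Values (log axis, value + 1) of 12 genes in each library, AML libraries numbered, group medians as black lines. Pax5 and Cd79a are high in AML 3 only, Cd3e in AML 4 and AML 5, Mecom most in AML 2, Itga2b in AML 6, and Cdkn2a in AML 3 to AML 6.

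In AML 2 and AML 6 single monocyte, megakaryocyte and stem cell genes stood far above every MDS library, while other members of their lists lay below. Mecom, the stem cell factor EVI1 activated in poor-risk human AML, read 1.15, 1022, 0.239, 0.950, 46.4 and 69.1 in AML 1 to AML 6 and 0.742 to 1.98 in MDS. In AML 2 several monocyte genes were also high. Csf1r, the receptor for macrophage colony-stimulating factor, read 1965 against 229.9 to 424 in MDS, Cx3cr1, a chemokine receptor of patrolling monocytes, 485 against 1.43 to 68.3, and Adgre4 673 against 6.15 to 80.7. Cfb, complement factor B, read 259, with at most 7.98 in the other 11 libraries. In AML 6, 6 of 15 stem cell genes lay above and 5 below every MDS library, 7 and 2 of 15 megakaryocyte and platelet genes, and 2 and 8 of 14 progenitor growth factor receptors. In AML 2 the counts above and below were 3 and 8 for the stem cell list, 1 and 8 for the megakaryocyte list and 3 and 7 for the receptors. Such counts were not particular to AML 2 and AML 6. AML 5 had 8 and 2 for the megakaryocyte list and 6 and 5 for the stem cell list. AML 3 had 1 and 14 for the megakaryocyte list and 7 and 7 for the stem cell list. The genes named here were among the high ones. In AML 6 Itga2b, the platelet integrin CD41, read 397 against 33.3 to 58.7 in MDS, and Gata2 177 against 15.2 to 23.9. Kit read 375 there against 68.8 to 82.1, and Angpt1, a ligand of the stem cell receptor Tie2, 348 against 4.24 to 11.8. Pf4, a platelet chemokine, was 15.9 in AML 6 and 19.9 in AML 5, against 2.63 to 7.15 in MDS. Bcl2, the survival gene, read 200.4 in AML 6, against 25.3 to 44.4 in MDS.

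AML 1, the library closest to MDS, led in mature myeloid and activation genes. S100a8 and Ly6g, of neutrophils, were highest there, at 21777 and 179, as was Ly6c2, of inflammatory monocytes, at 962. Acod1, the itaconate-producing enzyme of activated myeloid cells, read 83.1 against 1.59 to 16.7 in MDS. The NK and T effector genes Ifng, Eomes and Ncr1 read 21.6, 19.1 and 10.8, each the highest of the 12 libraries. Of the 15 NK and cytotoxic genes 9 lay above every MDS library in AML 1. Its erythroid genes were nonetheless low, 23 of 26 lying below every MDS library.

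Cdkn2a and Myc were highest in AML 3 to AML 6, whereas the lists of p53 targets and of the Myc network did not divide the libraries in that way. Cdkn2a, the locus of p16 and p19Arf, which restrains MDM2, read 0.601, 4.63, 209, 109, 114 and 44.8 in AML 1 to AML 6 and 0.107 to 3.69 in MDS. Myc, a driver of growth, read 40.4, 83.1, 247, 292, 177 and 150.3 and 48.9 to 68.2 in the same order, above every MDS library in all but AML 1 (log2 change 1.15 ± 0.40 (SE), limma adjusted p = 0.0970). Myb, a progenitor factor, read 122 to 195 in MDS (median 145) and 147 to 627 in AML (median 370.4) (log2 change 1.13 ± 0.34 (SE), limma adjusted p = 0.0736). None of 27 p53 target genes passed in limma (6 at an unadjusted p under 0.05, 0 by edgeR and 3 by DESeq2), and their median was -0.05. In AML 1 to AML 6, 10, 7, 11, 7, 11 and 6 of them lay above every MDS library and 7, 7, 6, 9, 10 and 10 below. Whether these counts differ from those of all tested genes in the same library was not tested. Cdkn1a, the p53-induced cell cycle inhibitor p21, read 129.8, 55.8, 111, 19.5, 10.5 and 64 in AML 1 to AML 6 and 28.1 to 97.5 in MDS (log2 change -0.17 ± 0.56 (SE), limma adjusted p = 0.853), so AML 4 and AML 5 lay below and AML 1 and AML 3 above every MDS library. Mdm2, which degrades p53, was highest in AML 1 at 250.2 and read 129.6 to 177 in MDS (log2 change -0.12 ± 0.20 (SE), limma adjusted p = 0.692).

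Many ribosome biogenesis and repair genes lay above MDS in AML 3 to AML 6, and cytosolic ribosomal protein genes in AML 2 as well, with few or no members past the threshold. The share of all tested genes above every MDS library was not worked out by library, so these counts are not set against the rest of the table. All 23 ribosome biogenesis genes had a positive change, with a median of 0.69, and none passed in limma (14 at an unadjusted p under 0.05, 0 by edgeR and 14 by DESeq2). The number above every MDS library was 23 in AML 3, 22 in AML 4, 19 in AML 5 and 17 in AML 6, against 3 in AML 1 and 1 in AML 2. Npm1, a nucleolar chaperone, read 119, 119, 396, 338, 232 and 177 in AML 1 to AML 6 and 106 to 134 in MDS. Of 71 cytosolic ribosomal protein genes Rpl22 alone passed, and 10, 43, 41, 47, 41 and 46 lay above every MDS library in AML 1 to AML 6. The share of summed values they took was 0.689 ± 0.0855% in MDS and 0.918 ± 0.149% in AML (SD, n = 6 each; two-sided exact permutation p = 0.0130, adjusted 0.0195). Atm, the kinase that senses double-strand breaks, read 29.1, 45.4, 145, 165, 131 and 130.5 in AML 1 to AML 6 and 31.3 to 45.9 in MDS (log2 change 1.23 ± 0.39 (SE), limma adjusted p = 0.0823). No member of the mismatch and alkylation repair list passed in limma (7 at an unadjusted p under 0.05, 0 by edgeR and 6 by DESeq2), nor of the double-strand break list (8 at an unadjusted p under 0.05, 1 by edgeR and 9 by DESeq2), and their medians were 0.50 and 0.31.

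The remaining lists showed few calls, and where 1 member of a list passed, in lists of 12 to 71 tested genes, the call rests on that gene. Of the 8 Hox, Meis and Pbx genes all had a negative change and none passed in limma (4 at an unadjusted p under 0.05, 0 by edgeR and 0 by DESeq2), Hoxa9 reading 1.98 to 3.39 in MDS (median 2.46) and 0.0478 to 3.0 in AML (median 0.461) (log2 change -1.11 ± 0.31 (SE), limma adjusted p = 0.0598). Hlf, a stem cell factor, read 4.19 to 8.0 in MDS (median 5.44) and 0.287 to 3.77 in AML (median 1.96) without overlap and did not pass (log2 change -1.33 ± 0.35 (SE), limma adjusted p = 0.0547). None of 16 Wnt pathway genes passed in limma (1 at an unadjusted p under 0.05, 1 by edgeR and 5 by DESeq2), with a median of 0.39, and their largest movement was in single libraries, Lef1 reading 269, 149 and 595 in AML 3, AML 4 and AML 5 and 1.62 to 3.17 in MDS. None of 11 Notch pathway genes passed (2 at an unadjusted p under 0.05, 0 by edgeR and 4 by DESeq2), with a median of 0.23. None of 24 genes on mouse chromosome 18 that correspond to human 5q passed (2 at an unadjusted p under 0.05, 0 by edgeR and 1 by DESeq2), with a median of -0.05. The 10 most abundant genes took 9.10 ± 0.801% of summed values in MDS and 5.92 ± 3.44% in AML (SD, n = 6 each; two-sided exact permutation p = 0.0498), and were 12.6% in AML 1 and 3.35% in AML 6. This difference kept its call without AML 1 and lost it without any other single library.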

How the data were processed

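RNA was taken with Trizol and sequenced after TruSeq stranded mRNA preparation, per the labels. The submitters' processing notes name bcl2fastq, FastQC, TopHat, SAMtools and edgeR with mm10, without versions or a counting step. The deposited table holds a normalised signal per gene. Its summed values, 803746 to 1118650, differ too much for scaling to the plain library total. Of 11430 rows, 155 alias names were merged, leaving 11275 genes. All values in 11 libraries, and 99.99% in AML 1, are whole multiples of 1 step per library within 0.05 of a read, which gave the read totals. The step was found by a search, and in 6 libraries the lowest value is worth more than 1 read, so edgeR and DESeq2 on these reads are alternatives only. Genes with a value of at least 1 in 6 libraries were tested with limma 3.58.1 (lmFit, eBayes with trend) in R 4.3.3 on log2(value + 1), with Benjamini-Hochberg adjustment at 0.05. Fold changes on this scale understate low genes. Shares were tested by exact permutation. The fit was checked on simulated data with 200 changed genes. Both groups were simulated with the same spread, so the check does not cover the wider spread of the AML libraries.

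Groups came from the labels. The 45 gene lists, the genes and the comparison were chosen with earlier results of these data known. Named are Trp53, Egr1 and Apc, then in each direction the 12 passing genes that changed most and averaged at least 5 in the higher group, the first 2 and up to 4 smallest-p members of each list described, and 8 genes with the widest gap between groups. Some genes named by this rule are not reported here. Genes described in single libraries were also chosen after their values were seen. Positions, promoters and symbols are from GENCODE and RefSeq for GRCm38. The alternatives changed the pseudocount to 0.1, dropped the filter, rescaled libraries by median of ratios, kept names unmerged, or used array weights, robust eBayes, edgeR 4.0.16, DESeq2 1.42.0, the replicate number as a block, each library left out, an ENU term and ENU-matched libraries. Added after seeing the data were fits without AML 3, AML 4 and AML 5, without AML 1 and AML 3, and without AML 1 and AML 6.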

Additional observations from a re-analysis of the deposited data

Results flagged for a closer look

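Within groups of 6, a library was singled out where the share of the group's range taken by its gap to the nearest other library exceeded Dixon's 95% critical value, worked out on the log2 scale (for shares, on the percent scale). This held for 29 of 264 groups of named genes and shares, or 11%, where chance gives about 1 in 20. These figures cannot be compared, since some of the genes were named because they stood out in a single library. Genes of 1 list are also not independent. No explanation was weighed. AML 3 stood apart as the lowest AML library for Mpo (30.3), Elane (7.27), Ly6c2 (5.36), Flt3 (0.574) and Ptprc (15.3). AML 3 stood apart as the highest AML library for Cd79a (409), Cd79b (422), Pax5 (208), Ebf1 (419.6) and Vpreb3 (258). AML 1 stood apart as the lowest AML library for Apc (73.7), Rab11fip3 (4.04), Dnmt3a (34) and Pecam1 (36.1). AML 1 stood apart as the highest AML library for the share of the 10 most abundant genes (12.6%). MDS 1 stood apart as the lowest MDS library for Mpo (2013) and Elane (548). MDS 1 stood apart as the highest MDS library for Rhag (857), Plek2 (95.8), Gfap (39.1) and Alad (885). MDS 3 stood apart as the lowest MDS library for Sytl2 (0.265), Cd3d (4.66) and H2-Aa (96.2). AML 5 stood apart as the highest AML library for Notch1 (1611) and Dtx1 (150.1). AML 2 stood apart as the highest AML library for Cfb (259). AML 4 stood apart as the highest AML library for Cd226 (219). AML 6 stood apart as the highest AML library for Ctla2a (403).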

How the results depend on the processing

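The count of 361 genes (112 higher, 249 lower) moved with most settings, while all 361 genes kept their direction in every setting run. Every setting used libraries on which these genes were chosen, so the kept direction is no separate check. It was 2216 (1528 higher, 688 lower) with DESeq2, 448 (295, 153) with edgeR, 2645 (1365, 1280) with array weights, which gave AML 3 a weight of 0.149, and 145 (36, 109) with a pseudocount of 0.1. It was 2317 (1115, 1202) without AML 1 and AML 3, 1906 (982 higher, the rest lower) without AML 1 and AML 6, and 0 in either direction without AML 3, AML 4 and AML 5, with ENU-matched libraries and with an ENU term (1670 genes at an unadjusted p under 0.05 with the term). Leaving out single libraries gave 0 to 2472 genes, 0 to 1277 higher and 0 to 1195 lower. Rescaling gave 372, robust eBayes 319, unmerged names 330 and no filter 361. The cause was not tested. The higher share of the calls was 69% with DESeq2 and 65.8% with edgeR.

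With the replicate number as a block 141 genes passed (6 higher, 135 lower). Deviations of same-numbered libraries correlated at -0.156 to 0.232, 2 of 6 over 0.1, and 2 of 6 AML libraries correlated best with their own number, so the numbers were not taken as pairs.

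The 433 genes without overlap became 1078 with ENU-matched libraries, 1058 without AML 3, AML 4 and AML 5, 1650 without AML 1 and AML 3, 1634 without AML 1 and AML 6, and 466 to 1405 without single libraries, since fewer libraries overlap less. Trp53 passed with DESeq2 (-0.93), without AML 1 and AML 3 (-1.08) and without AML 1 and AML 6 (-1.22), and lay between -1.05 and -0.79 without single libraries, passing without AML 1. AML 1 and AML 6 held the highest Trp53 values among the AML libraries. Passing without them is therefore favoured by the choice of what was left out and is no further evidence. Apc passed without AML 1 and AML 3 (0.48) and lay between 0.26 and 0.46 without single libraries, passing without AML 1. Egr1 passed in no setting, with 0.19 to 0.75 without single libraries. The haemoglobin share differed by -0.239 percentage points with ENU-matched libraries (exact permutation p = 0.0595) and the share of the 10 most abundant genes by -2.02 (exact permutation p = 0.298). That share lost its call in 11 of 12 fits without a single library, at -4.51 to -2.66 points. The haemoglobin and ribosomal protein shares kept theirs. Cdkn1a, at -0.46 to 0.24 without single libraries, turned positive with DESeq2 (0.17), edgeR (0.18), without AML 3, AML 4 and AML 5 (0.53), and without AML 4 (0.08), AML 5 (0.24) or MDS 4 (0.00282), and Mdm2 without AML 3, AML 4 and AML 5 (0.11).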

Other observations

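Outside the comparisons above, basophil, antigen-presentation and niche genes were read in the same libraries. Prss34, a protease of basophils, read 28.3 to 85.8 in MDS (median 78.5) and 0.0478 to 35.3 in AML (median 7.70), with AML 3 lowest and AML 1 and AML 4 inside the MDS range. The 12 eosinophil, basophil and mast cell genes all had a negative change, with a median of -0.74, and none passed in limma (3 at an unadjusted p under 0.05, 0 by edgeR and 0 by DESeq2). H2-Aa, an MHC class II chain, read 152, 115, 8.61, 147, 35.5 and 255 in AML 1 to AML 6 and 96.2 to 320.4 in MDS, so 4 of the 6 AML libraries lay inside the MDS range and AML 3 and AML 5 below it. Cxcl12, the chemokine that holds stem cells in the niche, read 4.37 to 16.2 in AML and 3.36 to 17.2 in MDS. Mycn, a relative of Myc, was 81 in AML 3 and 61.3 in AML 6, and at most 2.24 in MDS. Cxxc5, a zinc finger gene of the human 5q region, read 118 in AML 3, 105 in AML 6 and 7.74 to 12.4 in MDS. Ddx3y, on the Y chromosome, read 0.574 to 145 in AML and 15.1 to 130.3 in MDS. In AML 2 and AML 3, which had no ENU, all 4 tested genes of the sex-linked list lay below every MDS library. The list summed to 7.10 and 1.20 there, against 29.2 to 273 in MDS. What lies behind this was not tested, and no label used here gives the sex of donors or recipients.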
